A study of Mus musculus with 4 samples.

Results

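A set of 883 cohesin sites had a broad Rad21 peak in neural stem cells (NSCs) and a slim one in astrocytes (ASTs). They were the autosomal sites at which a single NSC peak overlapped a single AST peak by at least 1 bp, the NSC peak being 300 bp wide or more and the AST peak under 200 bp. They were chosen by these measured widths from 11718 autosomal sites paired in this way, of 18405 NSC and 16157 AST peaks on all chromosomes. Below they are called wide-to-narrow sites. They are set beside 3500 paired sites that were also at least 300 bp wide in NSCs but 200 bp or more in ASTs, called wide-in-both sites.

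The NSCs were dividing cells kept in EGF and FGF. The ASTs were kept in BMP, FGF and laminin, and according to the study they are post-mitotic cells obtained by exposing clonal NSCs, themselves derived from mouse embryonic stem cells, to BMP4. For both, the labels name no drug, allele, sex or age. The same Rad21 antibody was used on both. NSCs and ASTs were each represented by 1 Rad21 library and 1 input of unselected chromatin. Peak lists hold no expression values, so the cell types could not be checked against marker genes here.

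Rad21 is the subunit that closes the cohesin ring, the protein complex that holds sister chromatids together until anaphase. During interphase cohesin also extrudes and anchors loops of chromatin, and it tends to stop where the DNA-binding protein CTCF sits, so that its ChIP-seq signal forms sharp, narrow peaks. A peak is the stretch over which the precipitated fragments exceed what the caller takes for local background, and its summit is the position of the tallest pile of fragments. A taller pile stays above background over a longer stretch, so the width and the height of a peak are not separate measurements.

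The widths and every measure of height below come from the libraries that chose the sites. They describe the sites and test nothing, and with 1 library per cell type no p-value between the cell types exists. Intervals on shares are exact binomial 95% intervals (Clopper-Pearson), which cover counting error only. No read totals were at hand, so heights are compared as ranks within a list. The percentile of a peak is its rank by fold enrichment as a percentage of its list, ties being averaged. Fold enrichment is the deposited ratio between the tallest pile of fragments and the local background that the caller assumed.

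The first question was how many broad NSC sites were slim in ASTs. The autosomes held 4841 NSC peaks of 300 bp or more. Of these, 4383 were paired with a single AST peak, 405 had no AST peak (8.37%, 7.60 to 9.18) and 53 belonged to overlaps of more than a single pair. The 883 wide-to-narrow sites made up 20.1% (18.97 to 21.4) of the 4383. They were also 18.4% (17.3 to 19.5) of the 4809 paired AST peaks under 200 bp. A further 18 sites met the width limits on chromosome X and were left out. The opposite kind of site, under 200 bp in NSCs and 300 bp or more in ASTs, occurred 73 times, or at 3.84% (3.02 to 4.81) of paired AST peaks of 300 bp or more.

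Peaks were in general narrower in the AST list, with a median of 204 bp against 232 bp. Limits taken from each list's own widths allow for this only in part. They were set on all peaks of a list, while the paired peaks that were counted had medians of 215 bp in ASTs and 267 bp in NSCs. At 268 sites the NSC peak was among the widest 25% of its list and the AST peak among the narrowest 25%, and at 117 sites the reverse held.

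The NSC peaks of the wide-to-narrow sites ran from 300 to 839 bp, with a median of 341 bp. Their AST peaks ran from 129 bp, the narrowest width in the AST list, to 199 bp, with a median of 172 bp. The NSC peak was 1.52 to 5.75 times as wide as the AST peak, with a median of 2.06. At wide-in-both sites the median ratio was 1.34, and over all paired sites 1.22. Both limits cut through a continuous range, as the plot of widths shows.

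**Figure D1:**
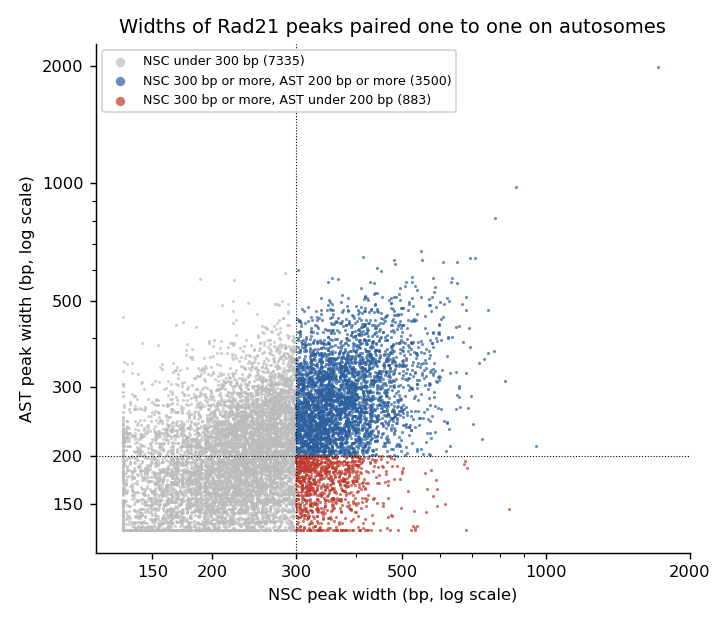
Width of the NSC peak (bp, log scale, horizontal axis) against that of the AST peak (bp, log scale, vertical axis) for the 11718 autosomal sites paired between the lists, each point a site. The 883 wide-to-narrow sites (red) fill the corner below 200 bp and right of 300 bp, next to the 3500 wide-in-both sites (blue), and no gap sets them apart.

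Near the NSC limit there were 129 wide-to-narrow sites of 300 to 309 bp, and 156 paired sites of 290 to 299 bp with an equally slim AST peak lay just outside. Near the AST limit, 181 sites had an AST peak of 190 to 199 bp, and 219 broad NSC sites with an AST peak of 200 to 209 bp lay outside. Where several sites were equally near a limit, the one of highest NSC fold enrichment is given. The nearest site inside the NSC limit, 300 bp on chromosome 4 at 133007489 to 133007788, had a fold enrichment of 20.5 in NSCs and 6.33 in ASTs. The nearest outside, 299 bp on chromosome 8 at 81175616 to 81175914, had 19.4 and 4.91. At the AST limit, the site inside, on chromosome 7 at 86494676 to 86495021, had an AST width of 199 bp and fold enrichments of 28.75 and 10.3. The site outside, on chromosome 14 at 103949625 to 103950092, had an AST width of 200 bp and fold enrichments of 24.35 and 11.4. All positions are in mm9 coordinates counted from 1.

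The next question was where the slim AST peak lay within the broad NSC peak. At 836 of the 883 sites (94.7%, 93.0 to 96.1) it lay wholly inside. The widths that chose the sites go far to fix this share, and at wide-in-both sites the share was 62.7% (61.0 to 64.3). The AST peak covered a median of 48.6% of the NSC peak, and the NSC peak reached a median of 87 bp beyond it on the left and 85 bp on the right. The typical NSC peak was thus centred on its AST partner. At 274 of the 836 sites with the AST peak inside (32.8%, 29.6 to 36.1), however, at least 75% of the added width lay on a single side. The figure for wide-in-both sites with the AST peak inside was 38.8% (36.7 to 40.8).

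The NSC and AST summits of a site mostly lay close together. They lay a median of 22 bp apart (quartiles 10 and 37), with a median signed shift of 0 bp, and at 98.4% (97.4 to 99.1) of wide-to-narrow sites the distance was 100 bp or less, close to the 98.7% over all paired sites. The NSC summit fell inside the AST peak at 859 of the 883 sites (97.3%, 96.0 to 98.3), against 98.6% of all paired sites. At wide-in-both sites the summits lay a median of 16 bp apart (quartiles 7 and 29). Among the 3926 paired sites that were under 300 bp in NSCs and under 200 bp in ASTs, the median was 21 bp, close to that of the wide-to-narrow sites. The farthest summits of a wide-to-narrow site were 324 bp apart.

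**Figure D2:**
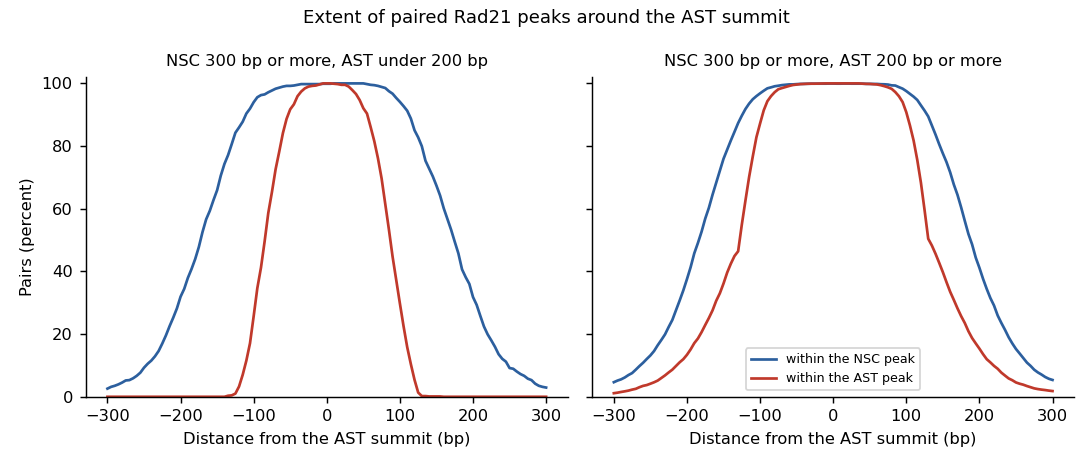
Percentage of sites (vertical axis) at which a base at a given distance from the AST summit (bp, horizontal axis) lies within the NSC peak (blue) or the AST peak (red), for the 883 wide-to-narrow sites (left) and the 3500 wide-in-both sites (right). At wide-to-narrow sites the NSC peak covers 94.0% and 94.1% of positions 100 bp to the left and right of the AST summit, and the AST peak 25.7% and 29.8%; on the right, the AST curve bends near 130 bp on either side.

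The comparison of ranks asked whether the strength of these sites differed between the lists as their widths did. Since height and width are tied within a list, this is a description of the same difference. The median wide-to-narrow site stood at the 72.3 percentile of the NSC list (quartiles 58.75 and 83.7) and at the 46.4 percentile of the AST list (quartiles 24.5 and 62.4). Wide-in-both sites stood at the 87.6 percentile in NSCs (quartiles 75.1 and 94.5) and the 81.1 percentile in ASTs (quartiles 63.8 and 92.1). The wide-to-narrow sites were thus of the upper middle of the NSC list and the middle of the AST list. Of the 883, 110 stood above the 90 percentile in NSCs (12.5%, 10.4 to 14.8) and 3 did so in ASTs (0.340%, 0.0701 to 0.990). The corresponding shares of wide-in-both sites were 41.8% (40.2 to 43.5) and 29.9% (28.4 to 31.5).

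The AST percentile was below the NSC percentile at 752 wide-to-narrow sites (85.2%, 82.6 to 87.4). Over all 11718 paired sites the share was 59.4%, and at wide-in-both sites it was 64.8% (63.2 to 66.4). A percentile lower by 25 points or more in ASTs was found at 436 wide-to-narrow sites (49.4%, 46.0 to 52.7), against 22.5% of all paired sites and 17.5% (16.2 to 18.8) of wide-in-both sites. A percentile higher by 25 points or more in ASTs was found at 22 of the 883 (2.49%, 1.57 to 3.75), against 11% of all paired sites. The percentiles in the 2 lists had a Spearman correlation of 0.27 over the 883 sites, 0.24 over the 3926 other sites with a slim AST peak, 0.50 over the wide-in-both sites and 0.52 over all paired sites. The points of each correlation share their 2 libraries and the classes were cut on width, so these are descriptions.

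**Figure D3:**
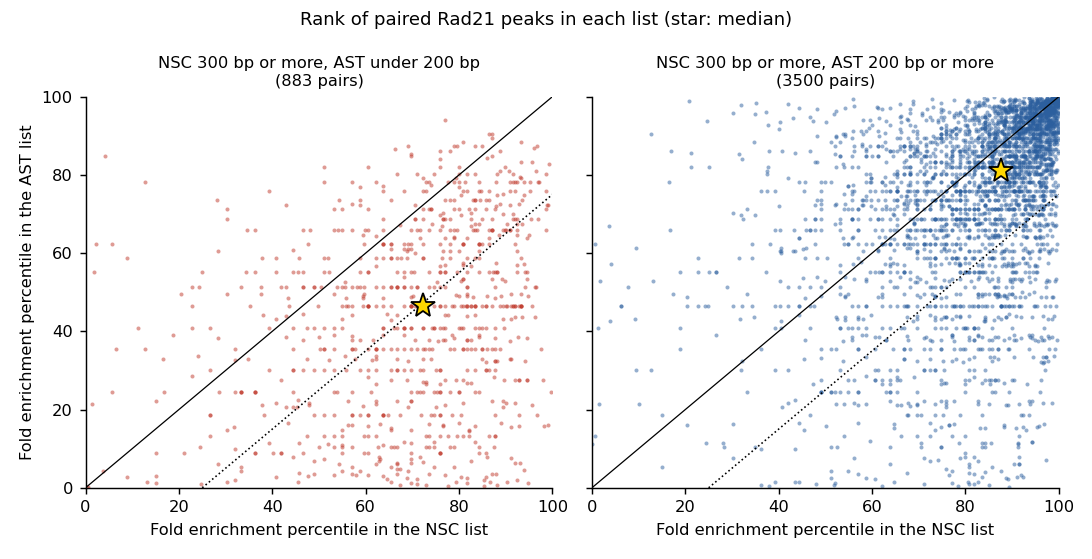
Percentile of fold enrichment in the NSC list (horizontal axis) and in the AST list (vertical axis) for wide-to-narrow sites (left, red) and wide-in-both sites (right, blue), each point a site and the star the median. Most wide-to-narrow sites lie below the solid line of equal percentile, and 436 of 883 lie on or below the dotted line that marks 25 points less in ASTs, against 612 of 3500 wide-in-both sites.

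The number of fragments at each summit follows from the deposited fold enrichment and p of a peak. The 883 sites had 17 to 122 fragments in NSCs, with a median of 47, and 11 to 50 in ASTs, with a median of 22. Wide-in-both sites had medians of 65 and 36. The NSC to AST ratio of fragments, which contains the unknown ratio of depths and is read only between groups of sites, had a median of 2.11 at wide-to-narrow sites (quartiles 1.68 and 2.65). It was 1.79 at wide-in-both sites and 1.65 over all paired sites. The caller's confidence followed: the −log10 q was at least 10 at 94.2% (92.5 to 95.7) of the wide-to-narrow sites in NSCs and at 43.6% (40.3 to 46.9) in ASTs. Over all paired sites these shares were 82.8% and 61.2%, and at wide-in-both sites 98.7% and 89.9%. It was under 5 in ASTs at 129 wide-to-narrow sites (14.6%, 12.3 to 17.1). The share was 10.2% over all paired sites and 21.5% at the other slim AST peaks. A threshold at that value on the AST list alone would have left the 129 sites without their AST peak.

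Broad NSC sites were slim in ASTs more often where the NSC peak was low. From the 50 to 60 percentiles of the NSC list, 36.4% (30.7 to 42.5) of 269 broad sites had an AST peak under 200 bp. From the 70 to 80 percentiles it was 26.7% (23.4 to 30.1) of 690, and from the 90 to 100 percentiles 7.0% (5.78 to 8.37) of 1573. Below the 40 percentile the shares lay between 42.9% and 50%, each over 85 sites or fewer, and their intervals overlapped. By NSC width, the share was 30.8% (28.0 to 33.8) at 300 to 324 bp, 19.5% (17.3 to 21.8) at 350 to 399 bp and 7.56% (4.798 to 11.2) at 500 bp or more.

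**Figure D4:**
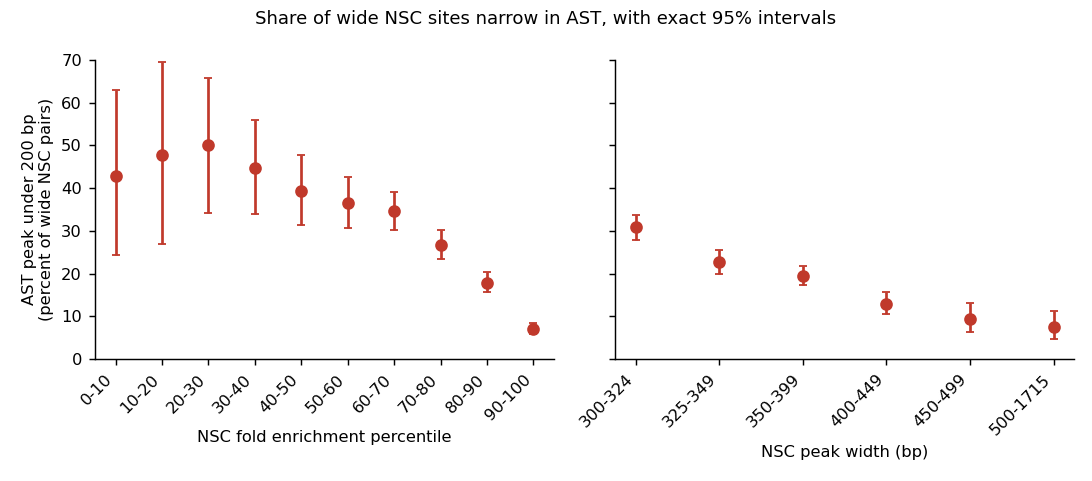
Share of broad NSC sites whose AST peak was under 200 bp (percent, vertical axis) by percentile of NSC fold enrichment (left) and by NSC width in bp (right), the bars being exact 95% binomial intervals. The share is 50% at the 20 to 30 percentiles and 7.0% at the 90 to 100 percentiles, and 30.8% at 300 to 324 bp against 7.56% at 500 bp or more.

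Sites of equal NSC width still differed in NSC height. At 300 to 324 bp, the 309 wide-to-narrow sites had a median NSC percentile of 68.9 and the wide-in-both sites of the same width 80.8. At 350 to 399 bp, the medians were 74.1 over 242 wide-to-narrow sites and 87.6 over the others. At 500 bp or more they were 69.1 over 22 sites and 94.1. In each of the 6 width classes the wide-to-narrow sites were the lower in NSCs, so their NSC peaks were broad for their height. Among wide-to-narrow sites the AST percentile showed no steady order by NSC width. Its median was 41.9 to 46.4 in the classes from 300 to 499 bp and 22.8 over the 22 sites of 500 bp or more.

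Seen from the AST list, the wide-to-narrow sites were compared with other slim AST peaks of like width. Their median rank by fold enrichment was higher in 3 of 4 width classes and lower in the narrowest. At AST widths of 185 to 199 bp, their median AST percentile was 56.7, and that of AST peaks of the same width paired with an NSC peak under 300 bp was 51.3. At 170 to 184 bp the medians were 51.3 and 46.4, at 150 to 169 bp 40.9 and 35.6, and at 129 to 149 bp 22.1 and 24.5. In fragments at the AST summit the wide-to-narrow sites had the higher median in all 4 classes. From the narrowest class to the widest, the medians were 18 against 17, 21 against 20, 24.5 against 22 and 26 against 24. The share of slim AST peaks with a broad NSC partner was 13.2% (11.5 to 15.05) at 129 to 149 bp and 25.9% (23.3 to 28.7) at 185 to 199 bp. Sites alike in AST width had unlike partners in NSCs, with a median NSC percentile at AST widths of 185 to 199 bp of 77.0 for the wide-to-narrow sites and 54.9 for the rest. NSC width chose these sites, so a higher NSC rank goes with the choice.

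The strongest NSC peaks among the 883 sites were compared with their AST partners. The strongest of all lay on chromosome 2 at 125430367 to 125430774, 408 bp wide with a fold enrichment of 35.8 and 122 fragments in NSCs, at the 99.6 percentile. Its AST peak, at 125430470 to 125430650, was 181 bp wide with a fold enrichment of 6.08 and 16 fragments, at the 24.5 percentile. The caller's background was at its usual level in both lists, at 3.22 and 2.63 fragments. By fold enrichment this site was therefore among the highest of the NSC list and in the lower part of the AST list, with summits 8 bp apart.

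On chromosome 18 at 12428311 to 12428734, the NSC peak had a fold enrichment of 31.4 (99.1 percentile) and the AST peak 5.57 (16.0 percentile), over an AST background of 3.95 fragments. The other 3 of the 5 strongest stood higher in ASTs. One was on chromosome 11 (30576095 to 30576528), another on chromosome 3 (122168934 to 122169345) and the last on chromosome 7 (105125983 to 105126361). Their NSC fold enrichments were 32.6, 31.4 and 29.6, and their AST fold enrichments 12.4, 10.45 and 10.45, at the 82.8, 72.3 and 72.3 percentiles. A slim AST peak thus did not always mean a low one.

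The 5 AST peaks of highest fold enrichment among the wide-to-narrow sites also stood high in the NSC list. The highest, on chromosome 14 at 51723121 to 51723306, had a fold enrichment of 16.7 at the 94.1 percentile of ASTs. Its NSC partner of 356 bp had 13.8 at the 77.0 percentile. There were 3 on chromosome 9, at 107417013 to 107417191, 40138305 to 40138496 and 56061250 to 56061443, with AST percentiles of 90.3, 90.3 and 89.4 and NSC percentiles of 87.0, 86.4 and 87.0. The remaining one, on chromosome 6 at 116078790 to 116078985, stood at 88.4 in ASTs and 93.2 in NSCs. These sites differed in width but by at most 17.1 percentile points in rank, and 4 of the 5 were higher in the AST list. AST fold enrichment chose these 5, so a high AST rank goes with the choice.

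The 3 greatest ratios of width belonged to NSC peaks that reached much farther on one side of the AST peak than on the other. On chromosome 1 at 92100285 to 92101123 the NSC peak was 839 bp wide and 5.75 times the AST peak of 146 bp, with 566 bp of the added width on the right and 127 bp on the left. Both peaks were low, at the 22.7 percentile in NSCs and 28.5 in ASTs. On chromosome 1 at 55463581 to 55464261 the NSC peak of 681 bp reached 524 bp to the right of its AST peak and 28 bp to the left, at the 8.89 and 2.80 percentiles. On chromosome 15 at 88706627 to 88707158 the NSC peak of 532 bp reached 345 bp to the left and 58 bp to the right. This last site was high in NSCs, at the 85.7 percentile, and low in ASTs, at 9.01. The other 2 of the 5, also on chromosome 1, began at 134879156 and 185857527 and were 614 and 532 bp wide in NSCs.

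The greatest differences in rank went with a raised local background in the list where the site was low, whose part in them was not tested. The 5 sites with the greatest loss of percentile from NSCs to ASTs stood at 88.2 to 94.7 in NSCs and at 0.681 to 4.61 in ASTs. They began at 134879156 and 106989151 on chromosome 1, 21135207 on chromosome 18, 5895976 on chromosome 11 and 49434293 on chromosome 13. The caller's background was 4.73 to 7.11 fragments there in ASTs, against the usual 2.63, and 3.22 to 3.33 in NSCs, against the usual 3.22. The 5 with the greatest gain began at 96397463 on chromosome 11, 111656975 on chromosome 12, 158375815 on chromosome 2, 36185259 on chromosome 18 and 62940430 on chromosome 16. They stood at 1.80 to 12.8 in NSCs and at 55.3 to 84.8 in ASTs, with a background of 5.01 to 10.01 fragments in NSCs and 2.63 in ASTs.

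The background was then compared over all wide-to-narrow sites. Taking more than 1.1 times the usual level as raised, it was so at 37.6% (34.4 to 40.9) of them in ASTs and 24.7% (21.9 to 27.7) in NSCs. At wide-in-both sites the shares were 36.3% (34.7 to 37.9) and 24.9% (23.4 to 26.3), and over all paired sites 34.5% (33.6 to 35.4) and 29.3% (28.5 to 30.1). At the other slim AST peaks, paired with an NSC peak under 300 bp, they were 32.8% (31.3 to 34.3) and 29.4% (28.0 to 30.9). The AST share was the highest of these groups at wide-to-narrow sites, and its interval overlapped those of wide-in-both sites and of all paired sites but not that of the other slim AST peaks. Among sites with neither background raised, a subset set after the data had been seen, 41.4% of 447 wide-to-narrow sites stood 25 points or more lower in ASTs, against 7.42% of 1807 wide-in-both sites and 15.8% of all paired sites.

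The wide-to-narrow sites were found on every autosome, from 18 on chromosome 19 to 87 on chromosome 1. As a share of broad NSC sites they were more frequent on chromosome 2 (25.1%, 20.4 to 30.2, 80 of 319) than over the genome, and less frequent on chromosome 8 (13.7%, 9.40 to 19.1, 29 of 211) and chromosome 19 (11.7%, 7.08 to 17.8, 18 of 154). On the other 16 autosomes the interval included the genome-wide 20.1%, also on chromosome 18, which had the highest share (25.4%, 19.1 to 32.7). Among 19 intervals at the 95% level, 0.95 are expected to leave out the value they estimate. Over 13 other settings the interval stayed off the genome-wide share in 11 for chromosome 19, 9 for chromosome 8 and 6 for chromosome 2.

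Chromosome 1 stood apart in the rank of its wide-to-narrow sites. Their median AST percentile was 22.1, against 38.2 to 55.3 on the other autosomes, while their median NSC percentile of 69.0 was within the range of the others (68.2 to 77.0). The AST background was raised at 77.0% of the 87 sites there, and at 20.6% to 56% on the other autosomes. This was shared by the broad NSC sites of chromosome 1 as a whole. Over all 477 of them, which include the 87, the AST background was raised at 77.1% and the NSC background at 48.6%. On the other autosomes these shares were 24.6% to 35.8% and 16.8% to 26.8%. The part of this background in the rank was not tested. Without chromosome 1, the share of wide-to-narrow sites 25 points or more lower in ASTs was 48.1% over 796 sites.

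**Figure D5:**
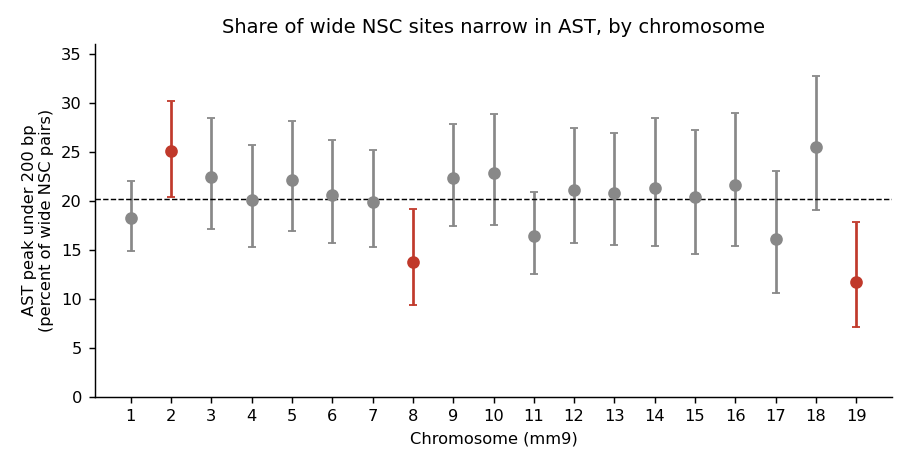
Share of broad NSC sites whose AST peak was under 200 bp (percent, vertical axis) on each autosome (horizontal axis, mm9), with exact 95% binomial intervals and the genome-wide 20.1% as a dashed line. The intervals drawn in red leave out that line: chromosome 2 lies above it at 25.1%, and chromosomes 8 and 19 below it at 13.7% and 11.7%.

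Along the chromosomes the share varied little. With each chromosome divided into 10 stretches of equal length up to its last peak, 15.7% (11.3 to 21.1) of broad NSC sites were slim in ASTs in the first stretch and 18.2% to 23.0% in the others. The interval of each included the genome-wide 20.1%. The first stretch, which holds the centromere in the mouse, had the fewest broad sites, 229 against 387 to 540 in the others.

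The spacing of peaks around wide-to-narrow sites was close to that around wide-in-both sites. The nearest other NSC peak lay a median of 27.5 kb away (quartiles 9.0 and 59.9), against 24.9 kb (quartiles 7.43 and 56.6) for wide-in-both sites. The nearest other AST peak lay a median of 33.7 kb away, against 29.5 kb. Another NSC peak within 1 kb was found at 3.17% (2.12 to 4.55) of wide-to-narrow sites and 4.43% (3.77 to 5.16) of wide-in-both sites, so that a broad NSC peak seldom had a second called peak beside it. Within 100 kb of a wide-to-narrow site there were 2.35 ± 1.73 (SD over sites) other NSC peaks and 1.93 ± 1.64 other AST peaks, against 2.52 ± 1.82 and 2.21 ± 1.71 at wide-in-both sites.

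Neighbouring sites that lacked a partner were also counted. A peak found in NSCs alone lay within 100 kb of 51.4% (48.1 to 54.8) of wide-to-narrow sites and 52.7% (51.0 to 54.4) of wide-in-both sites. A peak found in ASTs alone lay within 100 kb of 32.4% (29.3 to 35.6) of wide-to-narrow sites and 38.6% (37.0 to 40.2) of wide-in-both sites. The share over all paired sites was 38.0% (37.2 to 38.9) for peaks found in ASTs alone, above the interval of the wide-to-narrow sites. Wide-to-narrow sites also had fewer AST neighbours of any kind. Of the other AST peaks within 100 kb, 22.2% were found in ASTs alone, against 24.1% at wide-in-both sites and 23.9% over all paired sites. For NSC neighbours the shares found in NSCs alone were 36.1%, 33.4% and 32.8%.

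The median distance from one wide-to-narrow site to the next on the same chromosome was 1449 kb, and 99 of the 864 such distances were under 200 kb. After a wide-to-narrow site, the next broad NSC site along the chromosome was again of this kind in 193 of 881 cases (21.9%, 19.2 to 24.8). After a wide-in-both site it was so in 688 of 3483 cases (19.8%, 18.4 to 21.1), and the intervals overlapped.

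Runs of 3 or more wide-to-narrow sites within 200 kb occurred 6 times and held 19 of the 883 sites. The fullest lay on chromosome 5 from 93085272 to 93157728, 72.5 kb long. Its 4 NSC and 4 AST peaks were partners of each other, and all 4 pairs were wide-to-narrow. From left to right their NSC widths were 300, 395, 400 and 454 bp and their AST widths 148, 137, 180 and 188 bp. Their NSC percentiles were 49.0, 93.2, 93.0 and 98.0, and their AST percentiles 51.3, 46.4, 79.5 and 27.7. The first site thus kept its rank, while the fourth ranked high in NSCs and low in ASTs by fold enrichment. In fragments the fourth was not low: it had 40 in ASTs over a background of 6.32. The first had 21 over a background of 2.63.

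The other 5 runs had 3 sites each. Their spans were 167044884 to 167243505 on chromosome 2, 107967180 to 108081572 on chromosome 7, 97132836 to 97305596 on chromosome 10, 117038606 to 117175733 on chromosome 11 and 58241967 to 58410052 on chromosome 15. In the chromosome 2 run the NSC percentiles were 91.2, 91.4 and 83.5 and the AST percentiles 15.6, 46.4 and 80.1, so sites of like rank in NSCs had unlike ranks in ASTs within 199 kb. In ASTs these sites had 26, 20 and 31 fragments, over backgrounds of 4.74, 2.63 and 2.63. In the chromosome 10 run, all 3 NSC peaks and all 3 AST peaks of the stretch belonged to wide-to-narrow sites.

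Counted in fixed windows of 5 Mb, 376 of the 480 windows with a broad NSC site held a wide-to-narrow one, with a median of 2 and at most 9. The windows with most of them were on chromosome 7 at 105 to 110 Mb (9 of 25 broad NSC sites), chromosome 5 at 90 to 95 Mb (8 of 15), which holds the run of 4, and chromosome 11 at 115 to 120 Mb (8 of 32). The genes and DNA sequence at these positions were not analysed here.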

How the data were processed

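Rad21 ChIP-seq was done in NSCs and ASTs, with 1 Rad21 and 1 input library each. According to the submitters' processing notes, MACS2 2.0.9, Bowtie 1.0.0 and build mm9 were used, while peak settings, read filters and depth are not given in the sources used here. Deposited by the authors was 1 peak list per cell type, holding peak position, a score (10 times the −log10 q), fold enrichment (a ratio of pile-up to local background) and −log10 p and q. The lowest −log10 q was 1.02 in NSCs and 1.03 in ASTs.

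Peaks were paired when they overlapped by at least 1 bp and neither overlapped a further peak. Width was end minus start. Percentiles were taken within each whole list. The fragment pile-up and background at each summit were recovered by taking p as a Poisson tail, with a scale factor for each list (0.944 and 1) fitted where fold enrichment exceeded 8. The result returned the −log10 p within 0.05 for 99.7% of NSC and 99.99% of AST peaks. On lists of 18405 and 16157 peaks simulated with the same Poisson tail, background came back within 2% for 99.4% and 99.99% of peaks. In a further simulation 900 of 900 planted sites among 5000 were found, with peaks placed so that each could overlap only its partner. These runs checked the code, and not whether the tail holds for the deposited peaks. The median background of the peaks used to fit the scale factor is called usual.

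Groups were taken from the labels. No test between cell types was made. The sites and all lists and limits were chosen with earlier results of these data known. Sites named by position are the 5 of highest NSC and of highest AST fold enrichment, of greatest width ratio and of greatest loss and gain of percentile, the nearest to each limit, all runs of 3 or more within 200 kb, and the 3 fullest windows of 5 Mb. The planned analyses of genes and of the CTCF motif were not run, since no mm9 sequence or annotation was used here and coordinates were not converted. Alternatives to the overlap rule, thresholds, limits and ranking are given in the closing section. Scripts ran in Python 3.11.15 with scipy 1.17.1, pandas 2.3.3, numpy 2.4.6 and, for figures, matplotlib 3.10.9.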

Additional observations from a re-analysis of the deposited data

How the results depend on the processing

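Of 124 values recomputed under other settings, 79 stayed within the counting interval of the reported value, or for counts of sites within 1.5 times, and 45 moved beyond it. In all 13 changes of pairing, threshold, limits or chromosomes, wide-to-narrow sites had lower median NSC and AST percentiles than wide-in-both sites. A larger share of them also stood 25 points or more lower in ASTs. The groups were split on AST width, which goes with AST percentile (Spearman correlation 0.63 over all paired sites). A lower AST percentile is therefore tied to the split. All settings also reuse the same 2 libraries, so their agreement is not separate support. The distance to the nearest other NSC peak was the greater at wide-to-narrow sites in 12 of the 13.

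The number of sites was 379 when a −log10 q of 10 was required, 382 when peaks had to share 0.5 of each other, 2003 with limits loosened by 25 bp each, 314 with both tightened by 25 bp and 268 with limits at the outer 25% of each list. As a share of broad NSC sites this was 10.8%, 10.2%, 36.4%, 9.29% and 6.42%, and 17.9% at the −log10 q limit of 5. Such reciprocal overlap removes by its construction sites whose AST peak is under 0.5 of the NSC width. The median NSC percentile was 79.3 at the −log10 q limit of 10, 59.0 when ranked among paired sites alone and 67.4 with limits at the outer 25%. The median AST percentile was 65.9 and 48.5 at the −log10 q limits of 10 and 5, 38.3 when ranked among paired sites alone, 51.3 with reciprocal overlap, 51.3 with loosened limits, 34.6 with tightened limits and 24.5 with the outer 25%. Without raised background, a setting added after the data had been seen, it was 51.3.

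The share with a lower AST percentile was 77.6% at the −log10 q limit of 10, 80.9% with reciprocal overlap, 79.6% with loosened limits, 90.8% with tightened limits and 91.4% with the outer 25%. In the same order, the share 25 points or more lower was 23.2%, 38.2%, 42.0%, 62.4% and 66.8%. It was 43.0% at the −log10 q limit of 5 and 41.4% without raised background. At a −log10 q of at least 10 the same share was 10.1% over all paired sites and 11.2% at wide-in-both sites. The share with the AST peak inside was 90.4% with loosened limits, 96.2% with tightened limits and 96.6% with the outer 25%. The summits were a median of 19 bp apart at the −log10 q limit of 10, 25 bp with tightened limits and 25 bp with the outer 25%. The nearest other NSC peak was a median of 42315 bp away at the −log10 q limit of 10, 32469 bp at 5, 32139 bp with lists of equal length, 32720 bp with tightened limits and 33969 bp with the outer 25%. Other causes of these moves were not tested.

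The interval of chromosome 11 came to lie below the genome-wide share with tightened limits (4.23% against 9.29%), with the outer 25% (3.19% against 6.42%) and with peaks under 1 kb apart merged (15.8% against 20.2%). No paired analysis was possible because each cell type has 1 Rad21 library. The depth of the libraries is unknown. A library of fewer fragments gives lower and narrower peaks, and its part in the widths cannot be told apart from that of the cell type.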
